A study of Glycine max with 32 samples.

Results

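The data described here are 8 of the 32 leaf RNA libraries of the series, those of the transgenic soybean line VPZ-34A grown at ambient [CO2] (a[CO2], 410 µmol mol-1). They were chosen by their sample labels: 4 libraries taken 31 days after sowing (V4-V5, young vegetative plants) and 4 taken 86 days after sowing (R5-R6, seed filling; the labels write R6), with 1 library of each stage from rings 1, 2, 4 and 7 of a free-air enrichment field. All 8 come from Glycine max cv. Maverick carrying the Arabidopsis genes AtVDE, AtPsbS and AtZEP, as a single transformation event. Each library held pooled leaf disks of the youngest fully expanded leaf from several plants of a plot, so that growth stage, sampling date and leaf position on the plant cannot be told apart, and the same leaf was not followed as it aged. WT Maverick in the same 4 rings (8 libraries) and VPZ-34A in 4 rings at e[CO2] (600 µmol mol-1, 8 libraries) were used only to ask whether the stage effect differed.

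Between V4-V5 and R5-R6 a soybean plant passes from making new leaves to filling pods. The leaves taken were fully expanded at both stages. In leaves, excess light is released as heat by non-photochemical quenching, which depends on PsbS and on the xanthophyll cycle. In that cycle violaxanthin de-epoxidase (VDE) makes zeaxanthin in strong light and zeaxanthin epoxidase (ZEP) turns it back in weak light.

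The libraries held 17.8 M to 45.9 M estimated counts at V4-V5 and 17.6 M to 63.1 M at R5-R6, over 39066 to 42138 genes with a count. The 10 most abundant genes took 8.43% to 11.1% of the counts in the younger plants and 4.01% to 5.71% in the older ones, and the scaling factors (TMM) did not overlap between stages, being 0.865 to 0.983 in the younger and 1.04 to 1.15 in the older plants. Levels are given as CPM (counts per 1 M counts of the scaled library, M standing for mega), and a floor of 3 counts corresponded to 0.0757 to 0.191 CPM at V4-V5 and 0.0412 to 0.154 CPM at R5-R6, for counting error only. The first principal component held 76.2% of the variance and separated the stages in every ring, while on the second (10.8%) the R5-R6 library of ring 7 stood apart at -111 against 19.5 to 45.6 for the other R5-R6 libraries. A fold is also given without a ring where that moved it by over 1.5 times, as it did for 27 of the 82 named genes called, 20 of them without ring 7, except for 3 genes with a stage at or below the 3-count floor.

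**Figure D1:**
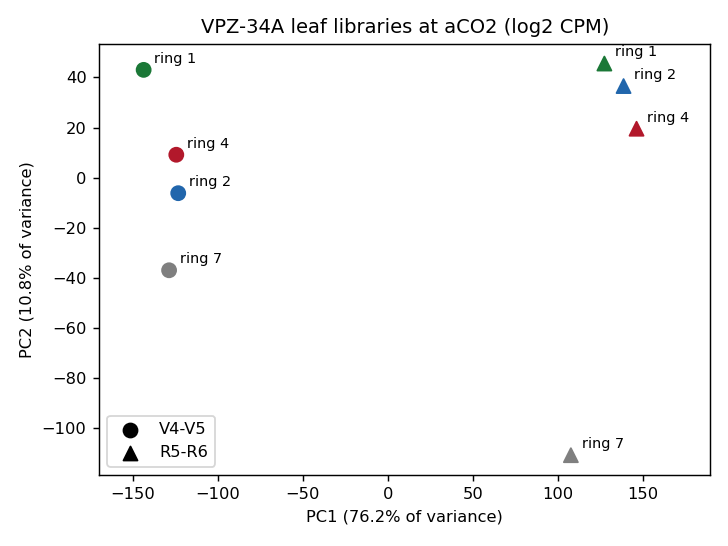
First and second principal components of log2 CPM in the 8 libraries, coloured by ring, with circles for V4-V5 and triangles for R5-R6. The stages lie on opposite sides of PC1 (76.2% of the variance), and the R5-R6 library of ring 7 lies at -111 on PC2, away from the other R5-R6 libraries.

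A large share of the leaf transcriptome differed between V4-V5 and R5-R6. Of 32987 genes tested with the ring as a block, 9239 (28%) passed an adjusted p of 0.05 and a log2 fold change (log2FC, R5-R6 against V4-V5) of at least 1 in size. Of these, 3660 rose (11.1% of the genes tested) and 5579 fell (16.9%), and 9066 moved the same way in 4 of 4 rings. Without ring 7, 9644 genes passed. The median log2FC of all genes tested was 0.04, but TMM itself sets the centre of the distribution near 0, so that this value is not a result. With library totals in place of TMM the median was 0.30, with 5548 genes higher and 4485 lower.

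The large changes were mostly decreases. A log2FC of 3 or more was reached by 500 of the genes that rose, and one of -3 or less by 1666 of the genes that fell. No count was present in any R5-R6 library for 98 of the genes that fell and in any V4-V5 library for 14 of the genes that rose. Among the 1535 tested genes averaging 100 CPM or more, 135 rose and 358 fell.

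Gene names were available for a subset only. The study's tables give an Arabidopsis symbol or description for 666 genes, and with the 10 VDE, PsbS and ZEP genes 597 of the named genes were tested, of which 122 rose and 154 fell (46.2%, against 28% of all genes). The study listed these genes for effects of line or CO2 in the same samples, so that their share is not a description of soybean genes at large. Gene functions are those of the Arabidopsis relatives, and reads shared between the close gene copies of soybean were split by the authors' counting, so that values of copies are uncertain.

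**Figure D2:**
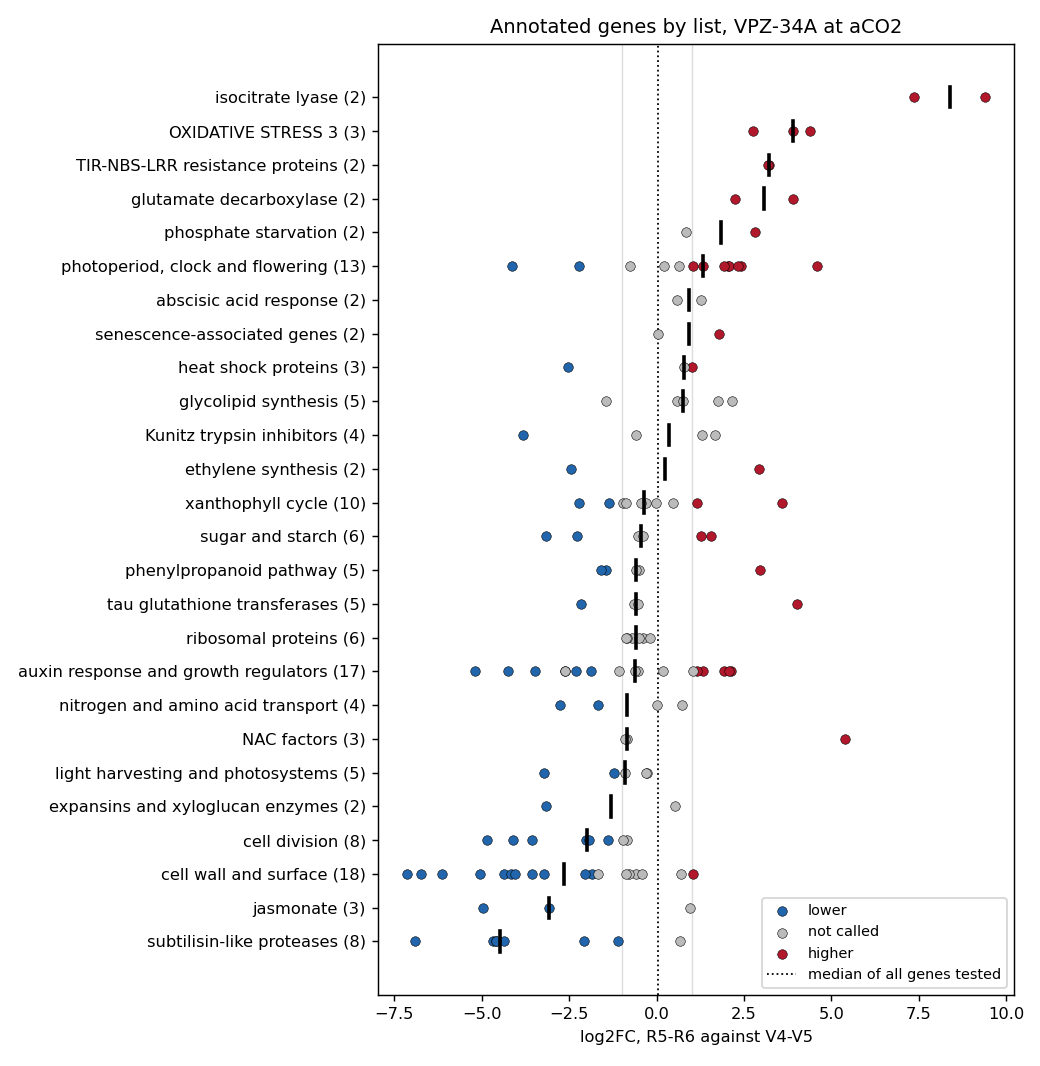
Stage log2FC (R5-R6 against V4-V5) of the annotated genes in each list with at least 2 tested, with the number tested in brackets. Points are genes, blue for called lower, red for called higher and grey for not called, black bars are list medians and the dotted line is the median of all genes tested (0.04). Subtilisin-like proteases (median -4.47), cell wall genes (-2.64) and cell division genes (-1.98) lie on the left, and genes of photoperiod and flowering (1.33) mostly on the right.

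The transgenes were expressed in all 8 libraries and stood lower at R5-R6, AtVDE most of all. AtVDE had 319, 428, 300 and 667 CPM at V4-V5 in rings 1, 2, 4 and 7, and 108, 82.2, 50.6 and 127 CPM at R5-R6. The stages did not overlap, and the transcript fell by 2.23 on the log2 scale (SE 0.21, adjusted p = 0.00019). AtPsbS had 3879, 3544, 2896 and 2980 CPM at V4-V5 and 1893, 1487, 1294 and 746 CPM at R5-R6, lowest in ring 7, and fell by 1.36 (SE 0.23, adjusted p = 0.0024).

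AtZEP was lower at R5-R6 in each ring, but its stages overlapped and it did not pass the test. Its CPM were 1334, 1603, 1119 and 1735 in the younger plants and 1163, 1126, 1009 and 947 in the older ones, with a log2FC of -0.43 (SE 0.19, adjusted p = 0.10). The paper fitted both stages together in a model with line and CO2. It found the stage effect significant on AtVDE and AtZEP, and not significant on AtPsbS. In the libraries used here, of VPZ-34A at a[CO2] alone, AtPsbS passed and AtZEP did not. In WT leaves at a[CO2] the 3 transgenes stayed at 0.585 CPM or less in every library, which checks the labels of the line.

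Among the 7 native VDE, PsbS and ZEP genes, a pair that the paper names as ZEP genes rose and none passed as lower. The paper describes Glyma.09G000600 as ZEP-like and assigns it the cycling of lutein and its epoxide. Which of the other native genes encode ZEP was not established here, so that the pair does not stand for all native ZEP genes. The ZEP gene Glyma.09G000600 had 1.28, 2.40, 2.26 and 1.97 CPM at V4-V5 and 20.1, 22.4, 26.1 and 25.1 CPM at R5-R6, with little spread between rings, and a log2FC of 3.58 (SE 0.17, adjusted p = 2.1e-05). The ZEP gene Glyma.11G055700 had 12, 13.7, 7.34 and 13.5 CPM against 14.5, 28.8, 29.9 and 31.8 CPM, a log2FC of 1.16 (SE 0.26, adjusted p = 0.0083). The ring 1 library was the lowest of R5-R6 and only just above the V4-V5 libraries, and without ring 4 the log2FC was 0.86, below the threshold.

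The other 5 native genes moved by less than 1 on the log2 scale. Glyma.06G113200 and Glyma.04G249700 averaged 2726 ± 337 and 2770 ± 298 CPM (SD, n = 4) in the younger plants and 1415 ± 175 and 1512 ± 119 CPM in the older ones, without overlap of the stages. Their log2FC of -0.95 (adjusted p = 0.0041) and -0.87 (adjusted p = 0.0061) passed the adjusted p but not the size. Glyma.17G174500 (-0.30), Glyma.03G253500 (-0.02) and Glyma.19G251000 (0.48) did not pass at an adjusted p of 0.24, 0.93 and 0.056.

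**Figure D3:**
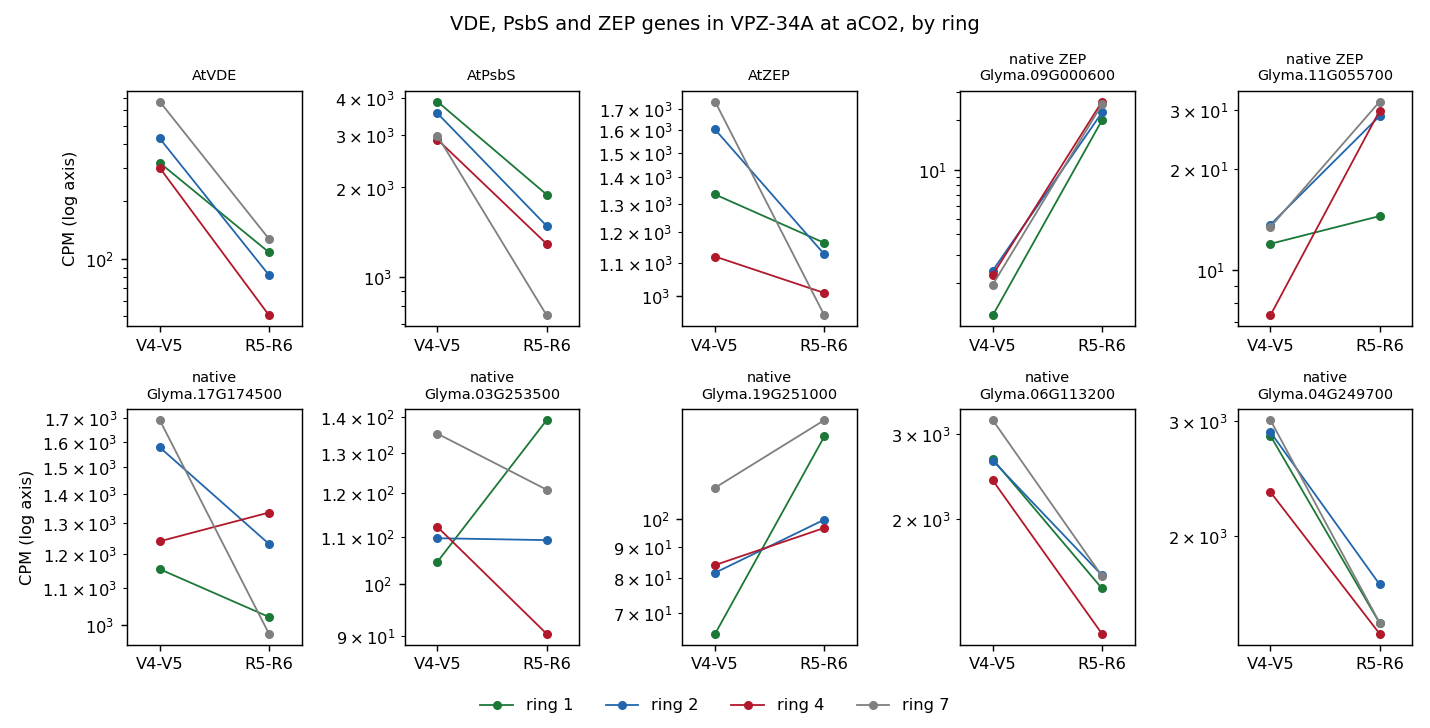
CPM on log axes of the 3 transgenes and 7 native VDE, PsbS and ZEP genes at V4-V5 and R5-R6, with 1 line per ring. AtVDE falls in each ring from 300 to 667 CPM to 50.6 to 127 CPM, and the native ZEP gene Glyma.09G000600 rises in each ring from at most 2.40 CPM to at least 20.1 CPM.

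Of 5 other named genes for light harvesting and photosystems, a pair fell and none rose (median log2FC -0.91), a share not far from that of all genes (28%) or of all named genes (46.2%). Glyma.19G261400, of the chlorophyll a/b-binding family, had 17.5, 11.2, 9.19 and 12.2 CPM at V4-V5 and 2.11, 1.44, 1.51 and 0.535 CPM at R5-R6 (log2FC -3.23, SE 0.32, adjusted p = 0.00023). Glyma.15G126100, described as PSAJ, a small photosystem I subunit, fell by 1.21 (adjusted p = 0.019), a call that was lost without ring 2 or ring 4 and with library totals. The more abundant of these 5 genes changed by less than the threshold of fold. The ELIP1 genes Glyma.10G243800 and Glyma.20G150600, relatives of an early light-induced protein, had a log2FC of -0.27 and -0.29 and overlapping stages. The PsbP-like gene Glyma.06G122400 had one of -0.91 (adjusted p = 0.0021), lower in 4 of 4 rings without overlap. These few genes do not stand for the abundant light-harvesting genes of the leaf.

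Genes of cell division were lower in the older plants. Of 8 tested, 6 fell and none rose, and with the adjusted p alone (50.7% of all genes) all 8 passed as lower. The other 2 passed the adjusted p with a smaller decrease, and the stages overlapped for none of the 8, against 43.9% of all genes without overlap. Glyma.11G249900 (MAP65-8, of a family of proteins that bundle microtubules) had 1.28, 2.30, 1.23 and 2.04 CPM at V4-V5 and 0.0439, 0, 0.0137 and 0.163 CPM at R5-R6, where 3 of 4 libraries were below the 3-count floor (log2FC -4.85, SE 0.60, adjusted p = 0.00062; -6.02 without ring 7). Glyma.17G175700 (KRP7, an inhibitor of cyclin-dependent kinases in Arabidopsis) had 4.53, 4.44, 4.77 and 5.33 CPM against 0.308, 0.205, 0.371 and 0.768 CPM, a fall by 3.55 (SE 0.32, adjusted p = 0.00016).

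The kinesin genes of this group moved the same way. The kinesin-like protein 1 genes Glyma.02G302800 and Glyma.14G011100 fell by 4.10 and 1.38, the second not without ring 2 or ring 4, and the TPX2-family gene Glyma.10G163400, named after a spindle protein, by 1.92. The kinesin Glyma.06G009000 had 27.9, 30.5, 26.1 and 36.3 CPM at V4-V5 and 5.36, 5.24, 4.70 and 21.3 CPM at R5-R6. Ring 7 was far above the other R5-R6 libraries there, and the fall by 2.03 (adjusted p = 0.0016) was thus uneven. The abundant members Glyma.09G285100 (MAP65-6) and Glyma.11G192100 (CKS2, a subunit of cyclin-dependent kinase) had log2FC of -0.84 and -0.97.

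Cell wall and cell surface genes gave some of the largest named decreases. In a group put together after the values were known, 11 of 18 tested genes fell and 1 rose (median log2FC -2.64; 13 fell without ring 7). Glyma.02G308700 (FLA2, a fasciclin-like arabinogalactan protein of the cell surface) had 40.7, 29.6, 52.9 and 31.2 CPM at V4-V5 and 0.0879, 0.103, 0.192 and 0.698 CPM at R5-R6, a log2FC of -7.13 (SE 0.51, adjusted p = 7.1e-05; -8.21 without ring 7). Glyma.01G170200 (BGAL3, a beta-galactosidase) fell from 124, 55.1, 78.2 and 88.5 CPM to 0.483, 0.719, 0.412 and 1.91 CPM (log2FC -6.73, SE 0.44, adjusted p = 5.0e-05; -7.33 without ring 7). In both, ring 7 was the highest of the R5-R6 libraries and still far below every V4-V5 library.

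Other wall genes followed at smaller sizes. Glyma.17G044500, of the invertase and pectin methylesterase inhibitor family, fell by 5.05, the SKU5-similar genes Glyma.11G097300 and Glyma.17G261500 by 4.18 and 4.04, and Glyma.02G034700 (PG2, a polygalacturonase, which cuts pectin) by 3.57. The log2FC of Glyma.17G044500 was -4.43 without ring 4 and that of Glyma.11G097300 -5.20 without ring 7. Expansins loosen the wall of growing cells, and the expansin A15 gene Glyma.07G229000 had 9.63, 6.47, 11.1 and 5.55 CPM against 0.835, 1.08, 0.893 and 0.791 CPM (log2FC -3.15, SE 0.25, adjusted p = 0.00011). The xyloglucan enzyme gene Glyma.13G103100 did not pass (0.54, adjusted p = 0.38). The gene that rose was Glyma.08G330600, a cellulose synthase-like E1 gene, from 78.9 ± 9.13 to 166 ± 44.0 CPM (SD, n = 4, log2FC 1.04, adjusted p = 0.0040). Its log2FC lay below the fold threshold without ring 1 or ring 4 and with all 32 libraries.

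Subtilisin-like proteases, most of which are secreted, showed a similar picture. Of 8 tested, again grouped after the values were known, 7 fell and none rose, with a median log2FC of -4.47, and 6 fell without ring 7. Glyma.16G018900 had 196, 115, 90.5 and 108 CPM at V4-V5 and 6.50, 8.01, 3.31 and 3.91 CPM at R5-R6 (log2FC -4.58, SE 0.23, adjusted p = 2.3e-05). Glyma.14G048000, related to AIR3, fell by 4.36 (adjusted p = 0.0013), with 60.5 to 156 CPM against 1.54 to 17.3 CPM, and had -3.72 without ring 1 and -5.05 without ring 7. Glyma.05G103200 (ARA12) fell by 4.68 (adjusted p = 8.5e-05). For Glyma.06G022500 all R5-R6 libraries were at 0 or 0.0514 CPM, below the 3-count floor, against 0.873 to 2.35 CPM in the younger plants, so that no fold is given. The exception was Glyma.04G022300, with 8.16, 15.1, 6.42 and 6.46 CPM against 33.7, 10.8, 9.53 and 9.43 CPM (adjusted p = 0.16).

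Further strong decreases among the named genes lay in other families. The aspartyl protease Glyma.03G257900 fell by 5.24 (adjusted p = 0.00022), the GDSL-type lipase Glyma.13G231300 by 4.90 (SE 0.17, adjusted p = 1.2e-05), the terpene synthase Glyma.13G250400 (TPS14) by 4.92 (adjusted p = 4.0e-05) and the leucine-rich repeat kinase Glyma.10G261600 by 4.84 (adjusted p = 7.6e-05). The aspartyl protease had -6.03 without ring 7. These genes were chosen for a fall in each ring and stages that did not overlap. The lipase had 118, 49, 64.9 and 59.4 CPM at V4-V5 and 3.34, 2.11, 2.36 and 1.70 CPM at R5-R6.

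Regulators of growth moved in both directions. Of 17 tested genes for auxin response and growth, grouped after the values were known, 5 rose and 6 fell (4 and 8 without ring 7, 2 and 5 without ring 2, 3 and 6 of 16 without ring 4). Glyma.15G017500 (IAA27, a repressor of auxin response) had 62.4, 42.4, 72.8 and 46.5 CPM at V4-V5 and 13.8, 11.7, 10 and 9.10 CPM at R5-R6 (log2FC -2.32, SE 0.18, adjusted p = 0.00010). Glyma.04G066300 (IAA29) fell by 3.47, Glyma.14G089093 (GRF1, of a family that promotes leaf growth) by 2.61 and Glyma.13G319200 (the precursor of the growth peptide phytosulfokine) by 5.19. Without ring 7 the log2FC of Glyma.04G066300 was -2.86 (-4.17 without ring 4) and that of Glyma.13G319200 -5.91. Among the genes that fell, the gibberellin-regulated gene Glyma.06G044400 was the most uneven, with 101, 185, 239 and 200 CPM against 24.3, 2.93, 1.13 and 48 CPM (log2FC -4.26, SE 1.11, adjusted p = 0.016), and its call was lost without ring 2 (-3.44), with -5.36, -3.15 and -5.32 without ring 1, 4 or 7.

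Among those that rose were Glyma.02G069400 and Glyma.13G224300, related to BIN2, a kinase that restrains brassinosteroid signalling in Arabidopsis. The first had 5.48, 12.4, 9.19 and 13.1 CPM against 36.4, 34.7, 52.3 and 27.3 CPM (log2FC 1.92, adjusted p = 0.0015), and the second 5.16, 12.1, 8.93 and 12.8 CPM against 39.7, 37.6, 57.4 and 28.4 CPM (log2FC 2.08, adjusted p = 0.0014). The values of the pair ran in parallel in every library, and whether they share reads was not tested.

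Genes of photoperiod, clock and flowering rose more often than they fell. Of 13 tested, 8 rose and 2 fell (median log2FC 1.33), where 11.1% of all genes rose and 16.9% fell and 46.2% of all named genes were called. Without ring 7, 7 rose and 3 fell, and without ring 1, 2 or 4 only 1 fell. Glyma.02G069500, related to FLOWERING LOCUS T (FT), whose protein travels from leaves to start flowering, had 1.53, 4.64, 3.44 and 3.16 CPM at V4-V5 and 12.9, 14.6, 16.9 and 7.98 CPM at R5-R6 (log2FC 2.03, SE 0.28, adjusted p = 0.00098). Glyma.20G153700, related to the floral MADS-box gene SEP3, had 4.59, 6.73, 7.24 and 9.64 CPM against 37.9, 34.1, 18.9 and 56.1 CPM (log2FC 2.32, SE 0.26, adjusted p = 0.00041). Another MADS-box gene, Glyma.20G154200 (AGL42), went from 0 to 1.11 CPM in the younger plants to 1.18 to 12.2 CPM in the older ones (log2FC 4.58, adjusted p = 0.00074). Its ring 7 library was the highest of V4-V5, and without that ring the log2FC was 7.15.

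Clock and light signalling genes were among those that rose. Glyma.11G211643 (RVE1, a MYB-like factor of clock output) had 15.6, 18.9, 16.5 and 17 CPM against 83.5, 81.8, 84.2 and 29.4 CPM (log2FC 1.92, adjusted p = 0.0013), so that ring 7 was low where the other rings were nearly equal. Glyma.02G282100 (PIF4, a phytochrome-interacting factor) behaved alike, with 2.74 to 3.90 CPM against 22, 20.8, 29.8 and 4.91 CPM (log2FC 2.41, adjusted p = 0.0019). The TIME FOR COFFEE genes Glyma.10G027000 and Glyma.20G144400, clock regulators in Arabidopsis, rose by 2.07 (adjusted p = 0.00014) and 1.05 (adjusted p = 0.0022), the second falling below the fold threshold without ring 4 or ring 7 (0.89 without ring 7), and the B-box gene Glyma.10G021400 by 1.33 (adjusted p = 0.0037).

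Both genes that fell in this group are related to repressors of flowering in Arabidopsis. Glyma.13G062500 (CDF2, a cycling DOF factor) had 8.93, 8.56, 16.2 and 9.62 CPM against 0.791, 0.308, 0.357 and 1.16 CPM (log2FC -4.13, SE 0.44, adjusted p = 0.00031). Glyma.19G178200 (TOE1) fell by 2.22 (adjusted p = 0.020), which was lost without ring 1, 2 or 4 (-1.53 without ring 4) and was -3.22 without ring 7, while the other TOE1 relative, Glyma.11G149825, had a log2FC of 0.64 (adjusted p = 0.021). The relatives of one Arabidopsis repressor therefore stood on either side of 0.

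**Figure D4:**
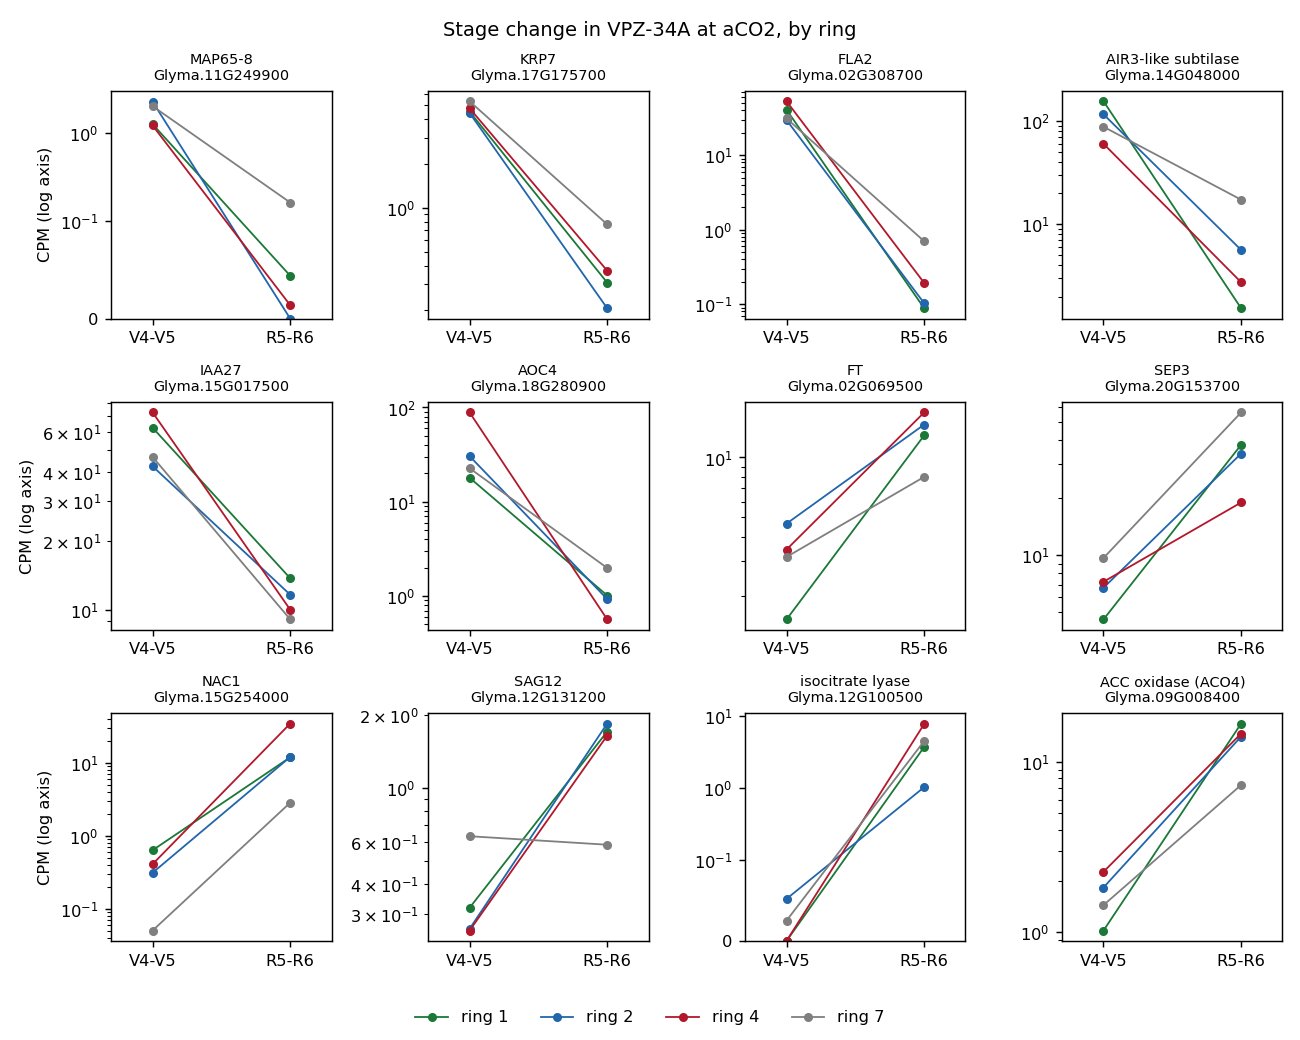
CPM of 12 genes at V4-V5 and R5-R6 with 1 line per ring, on log axes that turn linear near 0 where a library had no count. Genes of division, wall and growth (upper rows) fall in each ring, FT, SEP3, NAC1, isocitrate lyase and ACO4 rise in each ring, and SAG12 rises in 3 of 4 rings.

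The named senescence genes were few and did not move as a group. NAC factors include regulators of leaf senescence, but whether the 3 named here act in it was not tested. Of these 3, 1 rose: Glyma.15G254000 (NAC1) had 0.638, 0.313, 0.411 and 0.0505 CPM at V4-V5 and 12, 12.1, 34.8 and 2.86 CPM at R5-R6 (log2FC 5.38, SE 0.35, adjusted p = 4.9e-05). Ring 7 was lowest at both stages. Glyma.04G249000 (ATAF1) and Glyma.07G047900 (NAC062) had log2FC of -0.84 (-1.03 without ring 1, which passed) and -0.89, and the single WRKY gene, Glyma.17G224800 (WRKY50), one of -0.63.

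SAG12 is a cysteine protease gene widely used as a marker of late leaf senescence. Its relative Glyma.12G131200 had 0.319, 0.261, 0.257 and 0.631 CPM at V4-V5 and 1.71, 1.85, 1.65 and 0.582 CPM at R5-R6, so that it was higher in rings 1, 2 and 4 and not in ring 7, where the stages overlapped (log2FC 1.79, SE 0.56, adjusted p = 0.030). The call was lost without ring 1, 2 or 4, at a log2FC of 1.49 to 1.62, and without ring 7 the log2FC was 2.63 (adjusted p = 0.0012). SAG101 (Glyma.13G069600) was at 2.59 ± 0.772 and 2.64 ± 0.697 CPM (SD, n = 4; adjusted p = 0.89). No annotated member was found for chlorophyll breakdown, chlorophyll synthesis, the Calvin cycle or autophagy, which were not analysed here.

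Hormone synthesis genes showed opposite changes within a pathway. In ethylene synthesis, Glyma.08G018000 (ACS6, which makes the precursor ACC) had 12, 8.97, 6.21 and 5.25 CPM against 2.02, 1.49, 0.866 and 1.49 CPM (log2FC -2.45, SE 0.23, adjusted p = 0.00019). Glyma.09G008400 (ACO4, which turns ACC into ethylene) had 1.02, 1.83, 2.26 and 1.44 CPM against 16.8, 14.1, 14.7 and 7.31 CPM (log2FC 2.94, SE 0.27, adjusted p = 0.00019). For jasmonate, Glyma.18G280900 (AOC4, allene oxide cyclase) had 18.0, 30.5, 88.6 and 22.7 CPM against 1.01, 0.925, 0.563 and 1.98 CPM (log2FC -4.97, adjusted p = 0.00065; -4.17 without ring 4 and -5.73 without ring 7).

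Jasmonate signalling did not move as one. Glyma.07G051500 (MYC2, a transcription factor of the jasmonate response) fell by 3.09 (adjusted p = 0.0070; -3.75 without ring 1), from 0.719 to 1.66 CPM to at most 0.439 CPM, whereas the repressor gene Glyma.13G112000 (JAZ1) was spread from 2.25 to 28.1 CPM at R5-R6 and did not pass (log2FC 0.97, adjusted p = 0.33), though without ring 4 it did (1.88, adjusted p = 0.011). Neither of the abscisic acid genes passed with all rings, and without ring 1 Glyma.19G122800 did (log2FC 1.77, adjusted p = 0.029). Glyma.14G162100 (HAI3) had 4.70, 23, 12 and 103 CPM and Glyma.19G122800 (AREB3) 0.967, 3.60, 4.33 and 16.1 CPM at R5-R6, both highest in ring 7, against 11.7 to 14 and 1.53 to 2.40 CPM at V4-V5.

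Isocitrate lyase, the first enzyme of the glyoxylate cycle, went from near absence to a measurable level. Glyma.06G303200 had no count in any V4-V5 library and in the R5-R6 libraries 0.879, 0.873, 6.05 and 2.63 CPM, which is at least 18.1-fold higher than a floor of 3 counts per library (adjusted p = 0.0010). Glyma.12G100500 had 0, 0.0522, 0 and 0.0252 CPM against 3.69, 1.03, 7.64 and 4.45 CPM (adjusted p = 0.00013). These genes, and those of the next paragraph, were picked after their values were seen.

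Further stress and defence genes rose. The glutamate decarboxylases Glyma.08G091301 and Glyma.08G091500, which make GABA, rose by 3.90 (adjusted p = 0.00026) and 2.24 (adjusted p = 0.020, lost without ring 2, 2.87 without ring 4). In WT at a[CO2] both stayed low, at 0.128 ± 0.155 and 0.113 ± 0.0321 CPM (SD, n = 4) for Glyma.08G091301 and at 0.277 ± 0.0540 and 0.253 ± 0.0427 CPM for Glyma.08G091500. The differences of stage effect between the lines, 3.75 (SE 1.18, unadjusted p = 0.0070) and 2.32 (SE 0.79, unadjusted p = 0.011), did not pass (adjusted p = 1.0 for each). The OXIDATIVE STRESS 3 genes Glyma.02G239800, Glyma.07G125600 and Glyma.18G045200 rose by 3.90, 2.76 and 4.40, and the ring 7 library was the lowest of R5-R6 in each, with 0.489, 0.256 and 0.535 CPM where the other rings had 2.26 to 10.4 CPM, and in Glyma.07G125600 overlapped V4-V5. Without ring 7 these log2FC were 4.89, 3.42 and 5.11, and without ring 1 that of Glyma.07G125600 was 2.16. The resistance genes Glyma.06G265400 and Glyma.06G265420, of the TIR-NBS-LRR class, rose by 3.21 (SE 0.14, adjusted p = 1.9e-05) and 3.19 (SE 0.25, adjusted p = 0.00010), with 6.12 to 9.06 CPM against 53.4 to 83 CPM for the first.

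Of the other genes with the largest increases, several have no known role in their names. The TPR-family genes Glyma.13G365300 and Glyma.08G212300 rose by 7.12 (adjusted p = 7.5e-05) and 4.12 (adjusted p = 0.00021), both highest in ring 7, without which the first had a log2FC of 5.47. Glyma.19G008700, a zinc-binding dehydrogenase, rose by 5.25 (5.89 without ring 7), Glyma.05G190100 (DUF506) by 5.12, Glyma.07G251300 (UPF0497) by 4.76, the S-locus lectin kinase Glyma.12G144800 by 3.71 and the cytochrome P450 Glyma.09G049100 (CYP81D3) by 3.15. Of these, Glyma.05G190100 had 2.36, 1.83, 1.59 and 1.29 CPM at V4-V5 and 72.1, 82.1, 101 and 22.8 CPM at R5-R6.

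Sugar and starch genes were divided, with 2 of 6 higher and 2 lower. The trehalose-phosphate synthase family genes Glyma.12G129800 (TPS7) and Glyma.17G067800 (TPS11) rose by 1.56 (adjusted p = 0.00079) and 1.27 (adjusted p = 0.013, lost without ring 1 or ring 2). Glyma.17G242400 (an alpha-amylase) fell by 3.15 (adjusted p = 0.011, lost without ring 2, -4.23 without ring 7) and Glyma.01G211000 (a vacuolar invertase) by 2.28 (adjusted p = 0.0021). Glyma.06G011700 (APL3, of starch synthesis) and Glyma.08G033300 (HXK1, hexokinase) did not pass (-0.54 and -0.38).

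Transport and nutrient genes included decreases for nitrogen and an increase for phosphate. The amino acid permease gene Glyma.06G116400 (AAP3) had 1.34, 5.22, 3.95 and 2.40 CPM against 0.439, 0.308, 0.605 and 0.372 CPM (log2FC -2.75, adjusted p = 0.0011), and the nitrate transporter gene Glyma.17G096800 (NRT1:2) fell by 1.68 (adjusted p = 0.0072), and ring 7 of R5-R6 (7.40 CPM) stood above the others (1.36 to 3.03 CPM) and within the range of V4-V5. Glyma.12G084500 (GAT1) had a log2FC of 0.01. Glyma.05G247900 (PAP17, an acid phosphatase made under phosphate starvation) had 8.67, 26.3, 2.87 and 15.5 CPM against 77.7, 30.6, 72.9 and 134 CPM (log2FC 2.82, adjusted p = 0.010; 3.61 without ring 2 and 2.21 without ring 4). Glyma.17G114700 (SPX2) did not pass (0.85, adjusted p = 0.10), except without ring 2 and with library totals.

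In the phenylpropanoid pathway, 1 of 5 genes rose and 2 fell (3 fell without ring 7). Glyma.08G140600 (FAH1, ferulate 5-hydroxylase) rose by 2.96 (adjusted p = 0.00060), Glyma.20G114200 (C4H, an early step) fell by 1.58 (adjusted p = 0.0022) and Glyma.14G102700 (CM2, chorismate mutase) by 1.45 (adjusted p = 0.0031), while Glyma.03G181700 (PAL1) did not pass (-0.52). None of 6 ribosomal protein genes was called (median log2FC -0.60), and 1 was lower without ring 7 and 1 without ring 2. The most abundant of them, Glyma.08G181300, Glyma.11G019500 and Glyma.05G150000, had -0.38, -0.18 and -0.69.

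Heat shock and defence proteins showed no common direction. Glyma.19G011400 (HSP22.0) fell by 2.54 (adjusted p = 0.012, lost without ring 2, -3.47 without ring 7), and ring 7 of R5-R6 (3.26 CPM) stood above the other rings (at most 0.565 CPM). The HSP90-like gene Glyma.17G087900 had a log2FC of 1.0 (adjusted p = 0.019), on the edge of the threshold, a call lost without ring 1 or ring 4. The call was also lost in DESeq2 (0.97), in limma-voom (0.97), with RLE size factors (0.96), with all 32 libraries (0.94) and with 10 counts in every library (0.97). The DNAJ gene Glyma.05G021300 had a log2FC of 0.78. The beta-1,3-glucanase gene Glyma.03G132700 did not pass (0.31, adjusted p = 0.50). Of 5 tau glutathione transferases 1 rose and 1 fell, and none of 5 genes of glycolipid synthesis was called, both grouped after the values were known. The glycolipid count depended on the setting, with 4 higher without ring 2, 2 higher with library totals or without the ring block, and 1 lower without ring 4.

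Kunitz trypsin inhibitors, abundant in soybean seed, were taken as named genes of another organ. The genes tested already averaged 3.38 to 22.3 CPM at V4-V5, in young vegetative plants, so that they do not mark seed tissue here. Of 4 tested, 1 fell and none rose with all rings, and 2 rose without ring 4 and 1 with library totals. Glyma.08G341700 had 16.5, 6.63, 7.19 and 8.26 CPM against 1.63, 0.462, 0.536 and 0.372 CPM (log2FC -3.81, adjusted p = 4.6e-05). The neighbouring copies Glyma.08G341600 and Glyma.08G341800 had log2FC of -0.60 and 1.68 (adjusted p = 0.016 and 0.055). For flower, the SEP3 relative Glyma.20G153700 described above rose from a mean of 7.05 to 36.8 CPM. Whether seed or flower tissue was present was not tested. Markers of nodule, root, pollen and vascular tissue had no name in the tables used, and their part was not tested. In bulk leaf samples, fewer cells of a type and less RNA per cell cannot be told apart.

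To ask whether these changes belong to VPZ-34A, its stage effect was compared with that of WT in the same rings. None of 34370 genes (0%) differed at an adjusted p of 0.05 in edgeR, 1190 (3.46%) had an unadjusted p under 0.05, limma-voom called 0 and DESeq2 called 2. In simulated data with 200 changed genes, the edgeR test found 56% of differences of 1.5 and 97% of differences of 3 on the log2 scale. Where fewer genes differ, the adjustment asks for a lower p, and the share found then was not tested. Differences of moderate or large size could thus be missed. Glyma.02G215100, with a difference of 4.80 (SE 0.82), did not pass in edgeR (adjusted p = 0.85). The simulated differences were planted only in genes above a minimum mean CPM, in counts simulated without ring or stage effects. The share found among genes of lower CPM was not tested. Stage alone called 7790 of 32432 genes (24%) in WT.

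The gene with the lowest p was Glyma.13G043500 (ABCG11, a transporter of cuticle lipids in Arabidopsis). In VPZ-34A it had 6.69, 3.97, 4.21 and 4.54 CPM at V4-V5 and 3.03, 3.90, 3.01 and 2.28 CPM at R5-R6, and in WT 4.92 to 9.46 CPM and 0.988 to 1.57 CPM. The stage effects differed by 1.97 on the log2 scale (SE 0.29, unadjusted p = 1.1e-05, adjusted p = 0.38). Next came Glyma.02G215100, a hydroxyproline-rich glycoprotein gene, at 2.90 ± 0.767 and 4.73 ± 1.16 CPM in VPZ-34A and 1.13 ± 1.27 and 0.0582 ± 0.0233 CPM in WT (SD, n = 4; adjusted p = 0.85), and Glyma.05G114100, which has no name here (adjusted p = 1.0). DESeq2 called the first 2 of these.

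The stage effect in VPZ-34A was also compared between CO2 levels, in separate rings. None of 34786 genes (0%) differed in edgeR, 1796 (5.16%) had an unadjusted p under 0.05, limma-voom called 0 and DESeq2 called 21. The lowest p was that of Glyma.19G011700 (DOX1, a dioxygenase of fatty acids), with 14.7, 4.70, 12.6 and 7.70 CPM against 38.7, 15.1, 20.5 and 23.8 CPM at a[CO2], and 3.12 to 5.18 CPM against 24.2 to 53.6 CPM at e[CO2]. The difference was 1.81 (SE 0.25, unadjusted p = 1.7e-05, adjusted p = 0.60). Glyma.11G249000 and Glyma.17G222300, which have no name here, followed with differences of 0.96 and 1.82 (adjusted p = 0.84 for each). Among the DESeq2 calls were the subtilase Glyma.16G018900, with a difference of 1.36 (DESeq2 adjusted p = 0.0072), and the TPR-family gene Glyma.08G212300, with -2.26 (DESeq2 adjusted p = 0.0059), neither of which passed in edgeR (adjusted p = 0.84).

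The 3 stage effects are given side by side for some of the genes described above. FLA2 (Glyma.02G308700) had a log2FC of -7.13 in VPZ-34A at a[CO2], -6.20 in WT and -5.69 in VPZ-34A at e[CO2], the ZEP gene Glyma.09G000600 had 3.58, 3.51 and 3.34, and FT (Glyma.02G069500) had 2.03, 2.95 and 1.75. The values differed in sign for the HSP90-like gene Glyma.17G087900, with 1.0, -0.24 and 0.69, and for DOX1 (Glyma.19G011700), with 1.35, -0.41 and 3.13. Neither WT value passed in edgeR (adjusted p = 0.56 and 0.32). AtVDE had -2.23 at a[CO2] and -2.11 at e[CO2]. AtPsbS had -1.36 and -0.42, a difference of 0.97 (SE 0.29) that did not pass (unadjusted p = 0.0066, adjusted p = 0.89).

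**Figure D5:**
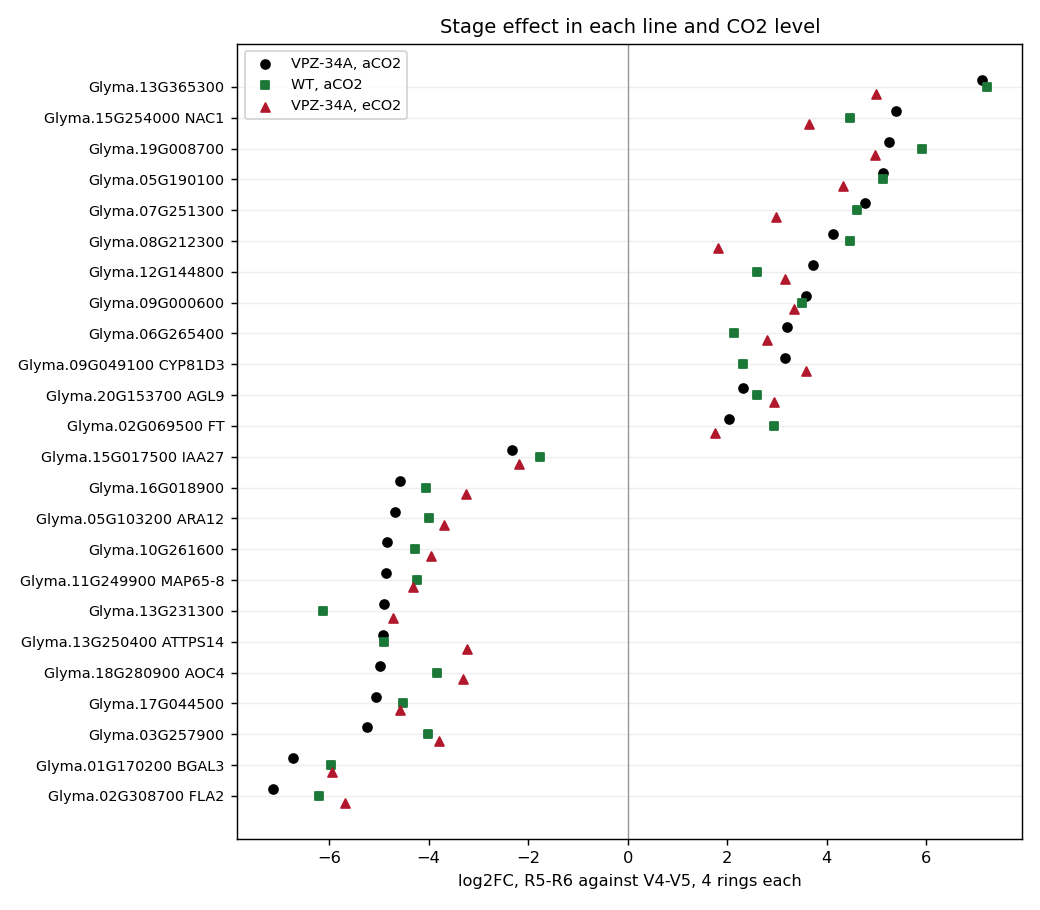
Stage log2FC (R5-R6 against V4-V5) of named genes in VPZ-34A at a[CO2] (black circles), WT at a[CO2] (green squares) and VPZ-34A at e[CO2] (red triangles), from 4 rings each. For each gene shown the 3 values lie on the same side of 0, and no difference between them passed the test across all genes in edgeR.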

How the data were processed

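Leaf RNA was sequenced from polyA libraries with single-end reads. The authors removed short reads (Trimmomatic 0.39), mapped the rest with STAR 2.7.10a on soybean assembly Wm82.a4.v1, extended by the 3 transgenes, and counted reads per gene with featureCounts (Subread 2.0.4). A read with several alignments counted as a fraction at each, so that 32.6% of the nonzero deposited values are not whole: the deposited values are estimated counts, without normalisation. ComBat-seq, which the study applied later, is not part of them. All 32 columns matched a sample label, and 0 columns were left unmapped.

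Counts were rounded to whole numbers, filtered with filterByExpr by group, scaled with TMM and tested in R 4.3.3 by quasi-likelihood (edgeR 4.0.16), with the ring as a block and Benjamini-Hochberg adjustment over all genes tested. A gene was called at an adjusted p under 0.05 and a log2FC of 1, and a difference of stage effects at the adjusted p alone. SE was derived from the log2FC and the test statistic. The ring numbers of the labels pair the samples as plots of the same ring. The deviations of same-ring samples from their stage means had correlations of 0.0106 to 0.414. Within a stage, chi-square per gene was 14.9 to 182 over the 12 library pairs, and no pair was treated as a duplicate. The libraries of a stage came from separate rings.

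Named genes were the VDE, PsbS and ZEP genes, the 10 with the largest increase and the 10 with the largest decrease among called genes with a name, a mean of 5 CPM and no overlap of stages, changed alike in 4 of 4 rings, up to 3 genes of highest mean CPM per list, and the 3 of lowest p for each difference of stage effects. Only 9 named genes other than VDE, PsbS and ZEP met the rule for increases, because 1 of the 10 was a ZEP gene. Other genes were named after their values were seen. The members and lists were chosen with earlier results of these data known. Other settings tried were DESeq2 1.42.0, limma-voom (limma 3.58.1), unrounded counts, size factors by RLE, a minimum of 10 counts in every library, no filter, no replicate block, all 32 libraries, other thresholds and each ring left out. Library totals without TMM were added after seeing the data. In counts simulated with 200 changed genes, the stage test recovered 85% of changes of 1.5 and 100% of changes of 3 on the log2 scale over 32540 genes, with 20 called wrongly. The changed genes were drawn from those above a minimum mean CPM, and no ring effects were simulated. No sequence or coordinate of these genes was used here.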

Additional observations from a re-analysis of the deposited data

Results flagged for a closer look

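In 23 of 238 groups of 4 libraries checked (119 genes at 2 stages), 1 library lay far from the other 3 by Dixon's criterion, where chance gives about 1 in 20 groups. The R5-R6 library of ring 7 gave 6 of these, and that of ring 4 gave 0. In ring 7 at R5-R6 the far values were 51.0 CPM for Glyma.13G365300 (others 2.42 to 7.40), 2.03 for Glyma.10G261600 (0.462 to 0.527), 0.582 for SAG12 (Glyma.12G131200; 1.65 to 1.85), 29.4 for RVE1 (Glyma.11G211643; 81.8 to 84.2), 21.3 for the kinesin Glyma.06G009000 (4.70 to 5.36) and 3.26 for HSP22.0 (Glyma.19G011400; 0.395 to 0.565).

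At R5-R6 ring 1 stood apart at 28.1 CPM for JAZ1 (Glyma.13G112000), 63.4 for TPS7 (Glyma.12G129800), 1.63 for the Kunitz gene Glyma.08G341700 and 33.7 for the subtilase Glyma.04G022300, and ring 2 at 143 for Glyma.19G008700 and 0.0514 for Glyma.06G022500. At V4-V5 ring 1 stood apart at 7.40 CPM for CYP81D3 (Glyma.09G049100), 9.24 for WRKY50 (Glyma.17G224800) and 16.5 for Glyma.08G341700. Ring 2 was at 0 for Glyma.02G239800. Ring 4 was at 9.60 for Glyma.13G112000, 2.93 for FAH1 (Glyma.08G140600), 3.90 for PIF4 (Glyma.02G282100) and 16.2 for CDF2 (Glyma.13G062500), and ring 7 at 0.631 for Glyma.12G131200, 1.11 for AGL42 (Glyma.20G154200) and 0.252 for Glyma.07G125600. No gene named here had a stage effect that differed between lines or CO2 levels in edgeR.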

How the results depend on the processing

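The count of 9239 genes changed with stage (3660 higher, 5579 lower) became 6001 (2407 and 3594) with at least 10 counts in every library, where fewer genes are tested, 16735 (8261 and 8474) at the adjusted p alone and 4026 (1236 and 2790) at a log2FC of 2. With library totals 5548 genes were higher, and 44.7% of the calls were lower against 60.4% with TMM. Leaving out 1 ring gave 8744 to 9644 genes (3357 to 3747 higher, 5387 to 5897 lower). Without the replicate block, that is without pairing by ring, 8962 genes were called, 8755 of them also called with it. The differences of stage effects stayed at 0 genes except in DESeq2, with 2 for line and 21 for CO2, and in the CO2 comparison without ring 2, with 1 gene, Glyma.04G250600, so that leaving out 1 ring gave 0 to 1. Their fits without the replicate block called 0 genes.

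Of 82 named genes called, 69 were called under every alternative that gave a value. Signs turned only among genes that were not called. Glyma.03G253500 had 0.24 with library totals, 0.011 without a filter and -0.16 to 0.065 with a ring left out. Glyma.12G084500 had -0.019 with 10 counts in every library, -0.029 in DESeq2, -0.033 with RLE size factors, -0.086 with all 32 libraries, -0.0040 in limma-voom, -0.11 without the replicate block and -0.43 to 0.35 with a ring left out. Glyma.13G069600 had -0.0026 with all 32 libraries and -0.056 to 0.33 with a ring left out, Glyma.11G019500 had 0.079 with library totals, and with a ring left out Glyma.03G132700 had -0.14 to 0.50 and Glyma.14G162100 -0.20 to 1.27. Genes below the 3-count floor limit what the decreases can show.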
